A study of Mus musculus with 1 sample.

Results

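Cells of a mouse gastric organoid culture in which UMIs of Cyba, Gsta1 and Gsta2 made up a high share of the transcriptome were examined. A UMI, or unique molecular identifier, tags 1 captured RNA molecule. The members were 58 of 1892 kept cells, or 3.07% (95% Clopper-Pearson interval 2.34% to 3.95%), and they were set against the other 1834 kept cells. A cell was kept if it had 500 or more detected genes and no more than 20% mitochondrially encoded UMIs. For 8 gene sets, the summed UMIs per 10000 were log-transformed as ln(1 + x) and expressed as z, the distance from the mean over kept cells in SD. A member had its highest z for Cyba, Gsta1 and Gsta2, and that z was at least 2. The other 7 sets were Scgb3a1 with Cyp2f2, Ndrg1 with Ly6m, Mt1 with Mt2, Cxcl2 with Cxcl5, Psca with Prss22, a mitosis set (Top2a, Mki67, Aspm, Hmmr) and a replication set (Mcm3, Mcm5, Mcm6, Pcna).

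Organoids are epithelial cultures that grow as hollow spheres in a gel. The 1 library came from stomach organoids of genotype wild type with treatment given as none, taken on day 7 after seeding. They were dissociated with 0.05% trypsin-EDTA for 30 min at 37 °C and passed through a 35 μm strainer, and a 10x Genomics 3' library was made. Strain, age, sex and the number of animals are not given in the sources used here. Because the values of Cyba, Gsta1 and Gsta2 chose the members, and all genes were counted in the same cells, every contrast below is a description with no test. With 1 library there was no replicate, and all intervals cover counting error only.

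Glutathione transferases join glutathione to reactive and foreign compounds, which makes them more soluble and prepares them for export. The alpha class genes Gsta1 and Gsta2 are induced by electrophiles, largely through NRF2, a transcription factor that also drives glutathione synthesis and NADPH supply. Cyba encodes p22phox, the membrane partner that the NOX1 to NOX4 oxidases need to make superoxide or hydrogen peroxide, whereas dual oxidases use maturation factors of their own. In the stomach, surface mucous cells, also called pit cells, secrete Tff1, gastrokines and the mucin Muc5ac.

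The alpha class genes lie close together and are near copies, which bears on how their UMIs can be read. Gsta1 (ENSMUSG00000074183, GRCm38 chromosome 9, 78230656 to 78242684, plus strand), Gm3776 (78257129 to 78269166, plus strand) and Gsta2 (78331018 to 78355788, minus strand) are annotated as protein-coding genes on chromosome 9. The longest Gsta1 transcript was 99.43% identical to that of Gm3776 and 96.69% identical to that of Gsta2. Over the last 300 bases, near which 3' reads begin, identity was 99.0% and 94.33%. Reads of Gsta1 and Gm3776 can therefore be assigned to the other copy, and their separate counts are uncertain. Gsta4, in the same gene cluster, was 59.6% identical to Gsta1 and is counted apart from it.

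The 100 bases before the RefSeq start of each gene (GRCm38.p6) are shown because they make this kinship visible at the promoters of the genes that chose the members and of their closest neighbour. Capitals mark the longest run of letters, 15 bases, that the 3 windows share. The windows are chr9:78230569-78230668 (plus strand) for Gsta1, chr9:78257029-78257128 (plus strand) for Gm3776 and chr9:78347146-78347245 (minus strand) for Gsta2.
Gsta1: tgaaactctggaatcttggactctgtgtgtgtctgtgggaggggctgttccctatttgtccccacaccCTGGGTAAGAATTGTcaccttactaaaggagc
Gm3776: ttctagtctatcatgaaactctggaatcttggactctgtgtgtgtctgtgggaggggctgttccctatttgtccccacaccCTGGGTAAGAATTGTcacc
Gsta2: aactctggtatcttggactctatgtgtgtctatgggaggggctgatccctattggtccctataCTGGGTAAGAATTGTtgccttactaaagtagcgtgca

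A core of the antioxidant response element, the DNA element that NRF2 binds, was searched as TGACNNNGC or TGAGNNNGC on both strands, from 250 bases before to 50 after each start. The windows of Gsta1, Gm3776 and Gsta2 held no match. Of all 32851 windows, 27.79% held one. The 33 genes of glutathione synthesis and NRF2 response with a window had 41 windows, of which 14 (34.15%) held one. Among the glutathione transferases, 9 of 32 windows (28.12%) held one. A match is a description of letters and not a site. The windows of Gclm (chr3:122245378-122245477, plus strand), Srxn1 (chr2:152105424-152105523, plus strand) and Ugdh (chr5:65435920-65436019, minus strand) are shown for their matches, in capitals, since all 3 genes were more than 2-fold higher in the members.
Gclm: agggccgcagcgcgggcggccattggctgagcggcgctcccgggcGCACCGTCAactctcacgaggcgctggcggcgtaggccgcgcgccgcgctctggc
Srxn1: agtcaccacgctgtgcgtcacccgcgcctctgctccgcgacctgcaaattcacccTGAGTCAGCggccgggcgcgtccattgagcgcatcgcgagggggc
Ugdh: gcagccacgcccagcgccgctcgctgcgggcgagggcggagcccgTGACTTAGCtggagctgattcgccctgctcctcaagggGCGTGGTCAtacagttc

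The label names Cyba first, but Gsta1 carried the selection. Of all rule UMIs in the members, 94.4% came from Gsta1, 3.46% from Cyba and 2.18% from Gsta2. Gsta1 had a UMI in 58 of 58 members and in 25.5% of other cells. Its level was 2682 CPM (UMIs per 1000000 gene UMIs, 2566 to 2802) in the members and 33.7 CPM (31.2 to 36.4) in the others. Cyba had a UMI in 20 members (34.5%, 22.5% to 48.1%) and in 19 other cells (1.04%), at 98.3 and 1.86 CPM. Gsta2 had one in 17 members (29.3%) and in 18 other cells (0.981%), at 61.9 and 0.929 CPM. With every cell thinned to 3000 UMIs, which kept 47 members and 1788 others, the shares were 95.7% and 8.89% for Gsta1, 21.3% and 0.447% for Cyba, and 17.0% and 0.112% for Gsta2. Of the other markers that came with the label, Clu had a UMI in all 58 members and in 99.4% of other cells, while Reg3g had one in 6 of 58 members. The cells are thus Gsta1-high cells, of which 20 carried Cyba UMIs.

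Membership reached down to single molecules. The rule UMIs of a member ran from 1 to 375 with a median of 11.5, and 19 members had at most 2. These 19 were shallow, with a median of 2345 gene UMIs, against 8475.5 in the other kept cells. The members' z ran from 2.06 to 6.87 with a median of 3.61. Just inside the threshold were cells at z 2.06 (12 rule UMIs among 32717), 2.10 (10 among 26352) and 2.11 (2 among 5256). Just outside it were cells at 1.99 (1 among 2888), 1.96 (1 among 2949) and 1.95 (2 among 5949). In 26.4% of other kept cells there was at least 1 rule UMI, and 3 of those cells had 10 or more. The share of these UMIs that was free RNA in the droplets was not tested.

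**Figure D1:**
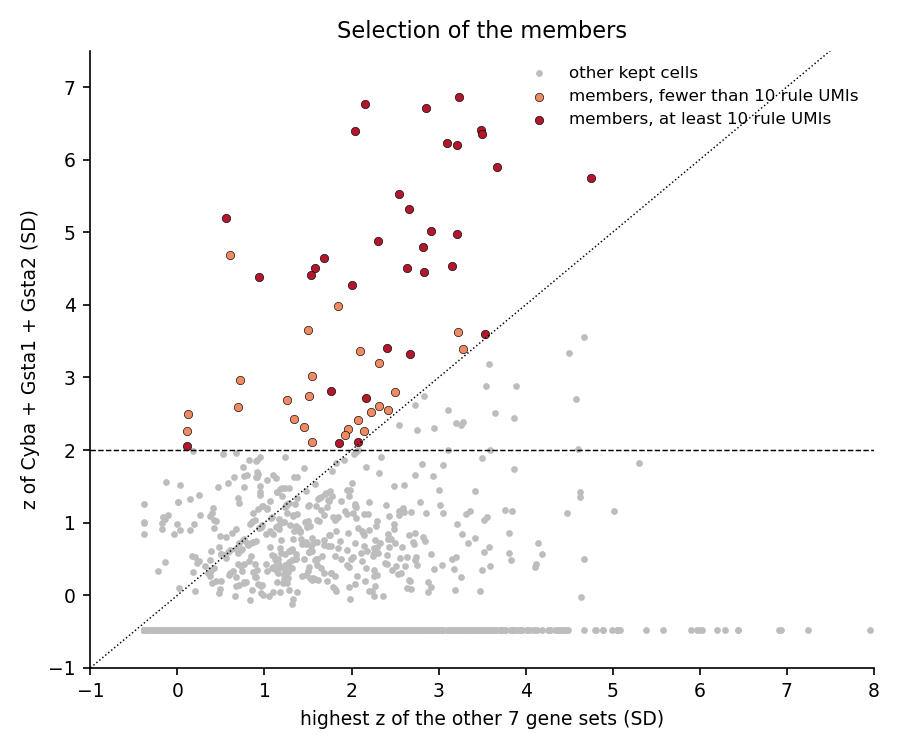
Each point is 1 kept cell, with the highest z of the other 7 gene sets on the x axis and the z of Cyba, Gsta1 and Gsta2 on the y axis, both in SD. The dashed line marks z of 2, the dotted line equal values, and the 58 members lie above both, from 2.06 to 6.87.

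After these values had been seen, the members were divided at 10 rule UMIs. The 33 members with at least 10 (called rule-rich) had a median of 16962 gene UMIs and 3355 genes, and held 86.2% of all member UMIs and 96.9% of rule UMIs. The 25 members with fewer than 10 (called rule-poor) had a median of 3307 gene UMIs and 1086 genes. The split follows depth as well as the level of the rule genes. Over the 58 members the Spearman rank correlation of rule UMIs was 0.848 with depth and 0.783 with z. A rule-poor member with 2 rule UMIs among 910 reached z of 4.69, while a rule-rich one was at 2.06. The part of depth in the contrasts between the subsets was not tested. The median mitochondrial share was 2.90% in the rule-rich members, 6.40% in the rule-poor ones and 4.08% in other cells. Since levels were summed over UMIs, the pooled values are mainly those of the rule-rich members. Values of each subset are given for some of the lists and for many of the genes named.

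**Figure D2:**
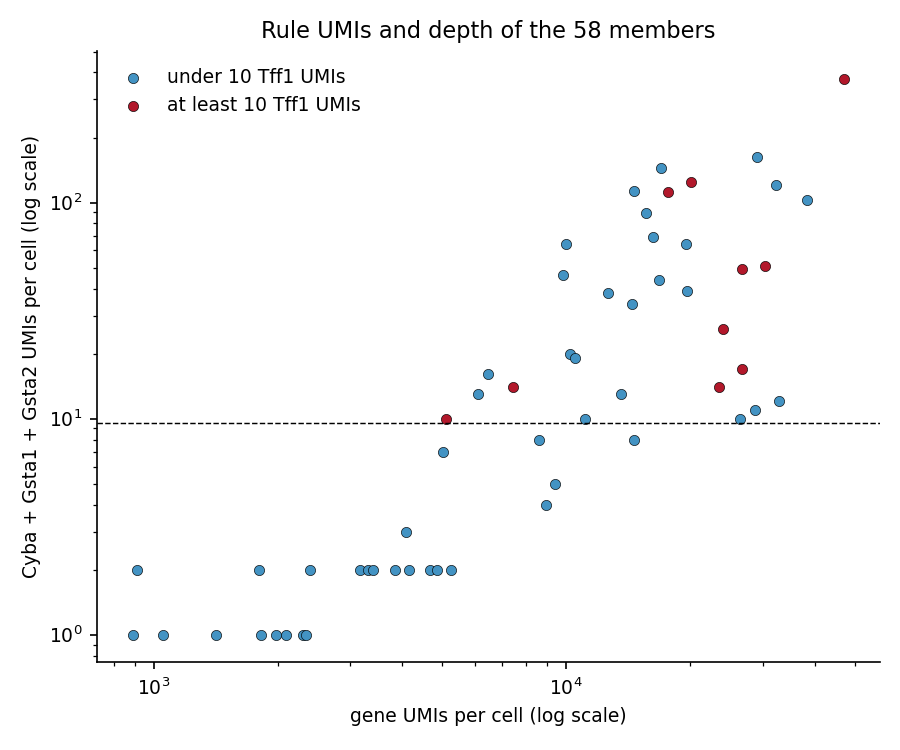
Each point is 1 of the 58 members, with its gene UMIs on the x axis and its Cyba, Gsta1 and Gsta2 UMIs on the y axis, both on log scales. The dashed line separates 33 members with at least 10 rule UMIs from 25 with fewer, and the 10 members with at least 10 Tff1 UMIs, in red, all lie above it.

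The cells were also clustered without the rule genes, Gm3776, the genes of the other 7 sets, cell cycle lists and sex-linked genes, so that this grouping used none of the values of the rule. At resolution 0.6, 34 of the 58 members fell into 1 of 6 clusters, cluster 6, which held 65 cells with a median of 14245 UMIs. These were 30 of 33 rule-rich and 4 of 25 rule-poor members. The remaining 24 members were spread over the other 5 clusters with 1 to 7 in each. At resolution 1.0, with 11 clusters, a cluster of 65 cells again held 34 members, 30 of them rule-rich, and the other 24 were spread over 10 clusters with 1 to 6 in each. At 0.3 a cluster of 163 cells held 33 members, 29 of them rule-rich. Cluster 6 also held 12 of the 19 cells that reached z of 2 for the rule genes but had a higher z for another set. Of its 65 cells, 62 had a rule UMI. The genes with the highest ratio in it, left-out genes included, were Reg3g, Cyba, Gm3776, Gsta2, Gsta1, Sptssb, Pgc and Tff1.

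Across the transcriptome, ratios were taken between summed CPM of members and other cells. Of 6682 genes with at least 200 UMIs, 308 (4.61%) were at least 2-fold higher in the members and 380 (5.69%) at least 2-fold lower. Their median log2 ratio was 0.01. Genes under 200 UMIs in all kept cells, such as Cyba, Gsta2, Reg3g, Anxa10 and Sult1c2, stand in no count of higher or lower genes. Since the rule used this contrast, nothing is read from these shares, and they stand beside the counts of gene lists below as a background. A gene that reached 200 UMIs only through the members was bound to be higher in them, so lists are counted over genes with at least 200 UMIs in the other cells, of which 281 of 6549 (4.29%) were at least 2-fold higher. Among the 25 genes with the highest ratios, 24 stayed past 2-fold without the member that had the most UMIs of the gene, and the exception was Sprr1a. In the rule-poor members 15 of the 25 were past 2-fold too. Of the 308 higher and 380 lower genes, 82 and 61 were past 2-fold in the same direction in the rule-poor members.

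**Figure D3:**
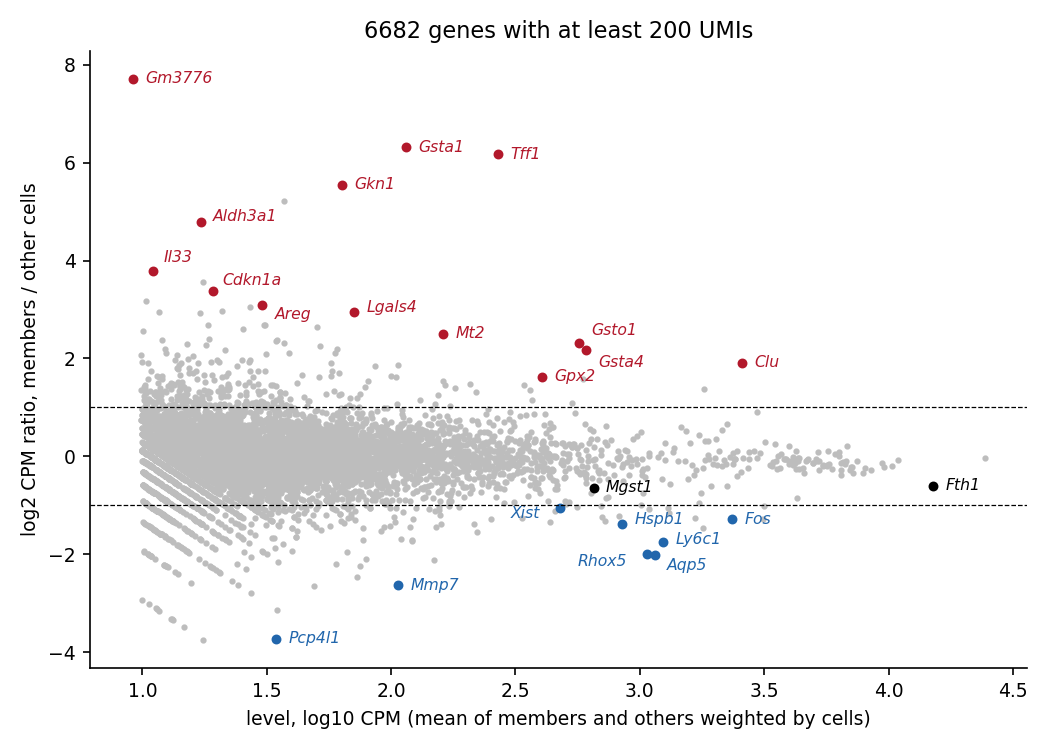
Each point is 1 of 6682 genes, with its level as log10 CPM on the x axis and the log2 CPM ratio of members to other cells on the y axis. Dashed lines mark 2-fold, red genes are at least 2-fold higher, blue genes at least 2-fold lower and black genes neither, and Gm3776, Gsta1, Tff1 and Gkn1 lie farthest up among the labelled genes.

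Of 15 counted glutathione transferases, 7 were at least 2-fold higher and 0 lower, with a median log2 ratio of 0.74, and the rule genes and Gm3776 are outside this count. Gm3776, the near copy of Gsta1 whose reads cannot be told apart from it with certainty, had 193 UMIs in 25 members and 24 UMIs in 24 of the other cells, a ratio of 210 (137 to 335). Gsta4, which prefers the lipid peroxidation product 4-hydroxynonenal, stood at 2468 CPM against 550 CPM, a ratio of 4.49 (4.27 to 4.72). Gsto1, of the omega class, stood at 2514 CPM against 506 CPM, a ratio of 4.97 (4.73 to 5.22). The UMIs of Gsta4 and Gsto1 were broadly carried, with a UMI in all 33 rule-rich members and no single member holding over 17% of them. Gsta3 had a ratio of 2.92, Mgst3 of 3.25 and Mgst2 of 2.69.

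The difference was not shared by the whole family. The mu class genes Gstm1 (ratio 0.999, 0.856 to 1.16) and Gstm2 (0.704) were not higher, and Gstp1 had a ratio of 1.67. The microsomal transferase Mgst1 was lower at 421 CPM against 659 CPM, a ratio of 0.640. Summed over the family without rule genes and Gm3776, the ratio was 2.72 (2.64 to 2.80) in rule-rich members and 1.06 (0.944 to 1.18) in rule-poor ones. In the rule-poor members the ratio was 1.49 for Gsta4, 1.31 for Gsto1 and 0.961 for Gsta3.

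Of 34 counted genes of glutathione synthesis and NRF2 response, 15 were at least 2-fold higher and 0 lower, with a median log2 ratio of 0.58. The summed level of the list did not differ in the same way, with a ratio of 0.994 (0.979 to 1.01) over all members and 0.835 in rule-poor ones. Without the ferritin genes Fth1 and Ftl1 it was 9678 CPM against 5870 CPM, a ratio of 1.65 (1.61 to 1.69), and 1.03 (0.947 to 1.11) in rule-poor members. Slc7a11, the cystine importer that feeds glutathione synthesis, had 133 CPM against 21.9 CPM, a ratio of 6.08 (4.83 to 7.58). Gclc and Gclm, the subunits of the enzyme that makes the first step of glutathione, had ratios of 5.20 (4.24 to 6.34) and 2.27 (1.86 to 2.74). Gss, the enzyme of the next step, had 2.51. Gsr, which regenerates reduced glutathione, had 3.35 (2.78 to 4.02), and the selenoenzyme Gpx2 had 1174 CPM against 381 CPM, or 3.08 (2.87 to 3.31). The transcription factor gene Nfe2l2 itself, which encodes NRF2, had 452 CPM against 172 CPM, or 2.63 (2.34 to 2.94).

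The enzyme genes Aldh3a1, Sult1c2 and Aldh1a1 were among the 25 genes with the highest ratios. Aldh3a1, an aldehyde dehydrogenase, had 194 UMIs in 27 members (24 of them rule-rich) and 183 UMIs in 162 other cells, a ratio of 27.7 (22.5 to 34.0). Sult1c2, a sulfotransferase, had 68 UMIs in 21 members and a ratio of 24.6 (17.4 to 34.8), and Aldh1a1, which makes retinoic acid, of 9.07 (6.57 to 12.4). Outside those 25, Ugdh, which supplies the sugar for glucuronidation, had 4.97, and the carbonyl reductase Cbr3 had 4.58. The sulfiredoxin Srxn1 had 5.17 on 21 member UMIs. Not all classical targets differed in this direction. Fth1, the ferritin heavy chain, was at 10032 CPM against 15261 CPM, a ratio of 0.657 (0.642 to 0.673), and Hmox1, whose ratio was 2.08, had 59.1% of its member UMIs in 1 cell and a ratio of 0.871 without that cell.

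Again the rule-poor members stood nearer to the other cells. Of the 34 genes, 15 were at least 2-fold higher in rule-rich and 3 in rule-poor members. There the ratio was 0.951 for Gclc, with 3 UMIs, 0.558 for Gclm, with 4 UMIs, 1.09 for Gsr and 1.08 for Nfe2l2. Of the NADPH oxidase genes besides Cyba, 10 of 16 had no UMI in any member, and 6 of these had none in any kept cell. Rac1, which some of these oxidases need, was the 1 gene of them with at least 200 UMIs, at a ratio of 0.850 (0.731 to 0.983). Duox2, a dual oxidase of mucosal surfaces, had 14 UMIs in 6 members, 7 of them in 1 member, and 11 UMIs in 9 other cells, a ratio of 33.2 (14.003 to 80.8), or 17.5 without that member. Its maturation factor Duoxa2 had 9 UMIs in 7 members, all rule-rich, and 8 UMIs in 7 other cells, a ratio of 29.3 (10.1 to 87.4). Of the 11 members with a UMI of either gene, 6 also had one of Cyba. Nox1 had 2 member UMIs and 5 in other cells.

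**Figure D4:**
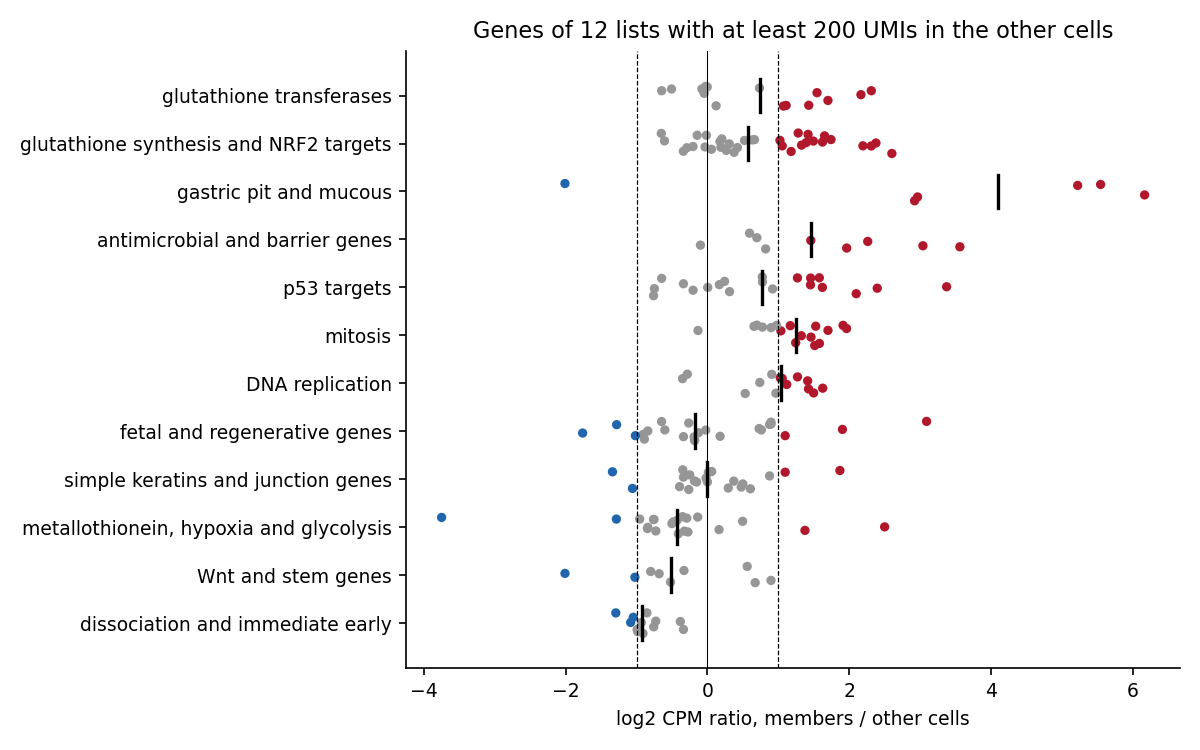
Each point is 1 gene with at least 200 UMIs in the other cells, placed by its log2 CPM ratio of members to other cells, in 12 gene lists without the rule genes. Thick bars are medians and dashed lines mark 2-fold, with glutathione transferases at a median of 0.74, glutathione synthesis and NRF2 targets at 0.58 and immediate early genes at -0.92.

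Secreted products of pit cells had very high pooled ratios, with most of their UMIs in few members. Of 6 tested pit and mucous genes, 5 were at least 2-fold higher and 1, Aqp5, lower. Tff1 (GRCm38 chromosome 17, 31161395 to 31165277, minus strand) stood at 6099 CPM against 84.7 CPM, a ratio of 72.0 (68.0 to 76.2). Its UMIs per member ran from 0 to 2441 with a median of 1. A single member held 2441 Tff1 UMIs and another 1198, together 80.3% of the total, and without these 2 members the ratio was 15.6 (14.3 to 16.9). At least 10 Tff1 UMIs were found in 10 members, all rule-rich, and in 0 of the other 1834 cells, whose highest count was 9. The remaining 48 members together had a ratio of 1.31 (0.987 to 1.70), an interval that includes 1. Among rule-poor members Tff1 was at 313 CPM, a ratio of 3.69 (2.51 to 5.23), with at most 4 UMIs in a cell. A Tff1 UMI was found in 18 of the 25 rule-poor members (72.0%, 50.6% to 87.9%), in 22 of 33 rule-rich ones and in 54.2% of other cells. After thinning to 3000 UMIs the shares were 57.1% (8 of the 14 rule-poor members that were deep enough, 28.9% to 82.3%), 39.4% and 23.4%. Of the 5 higher genes, 4 were past 2-fold in the rule-poor members too.

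The gastrokines followed the same cells in part. Gkn1 had 915 member UMIs and a ratio of 46.8 (42.0 to 52.3), with 10 or more UMIs in 6 members. Gkn2 had a ratio of 37.4 (32.5 to 43.1), with 10 or more UMIs in 5 members. The gel-forming mucin Muc5ac had 65 member UMIs, 92.3% of them in 2 cells. In the rule-poor members Gkn1 had a ratio of 4.08 on 11 UMIs and Gkn2 of 3.35 on 6, and Muc5ac had no UMI. No other kept cell had 10 UMIs of any of these 3 genes. Of the 10 Tff1-high members, 5 had a Muc5ac UMI, and 2 of the 10 had 0 Gkn1 UMIs. For 100 Tff1 UMIs there were 20.2 Gkn1 and 10.7 Gkn2 UMIs in the members, and 31.1 and 20.6 in the other cells.

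Any UMI of Tff1 was found in 40 members. Gkn3, a further gastrokine, had a UMI in 26 members (23 rule-rich) against 4.798% of other cells and a ratio of 7.81 (6.18 to 9.79). Ctse, the cathepsin of pit cells, had 30 UMIs over 16 members and a ratio of 26.1 (15.2 to 44.8). Tff2, of mucous neck cells, had a ratio of 7.59 (5.84 to 9.77) in 11 members, and Muc6 had no member UMI.

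Markers of most cell types outside the gastric mucous lineages were at 0 or low, while intestinal genes differed with the list used. The 5 endocrine, 4 squamous, 3 fibroblast and 3 endothelial markers had 0 UMIs in the members, and the immune markers had 1. Of 4 chief cell markers, 3 were at 0, while Pgc, the pepsinogen C gene, had 12 UMIs in 5 members, at 16.2 CPM against 3.05 CPM, a ratio of 5.31 (2.60 to 9.98). The 3 tuft cell markers had 4 UMIs (ratio 3.37, 0.863 to 9.52) and the 2 parietal cell markers 3 (ratio 3.01, 0.583 to 9.82), so that their direction was not resolved at this depth. The 5 intestinal markers had 32 UMIs, at 43.1 CPM against 31.5 CPM, a ratio of 1.37 (0.926 to 1.95), and 25 of these UMIs were of Vil1. A longer list of 20 intestinal genes, of which 10 had no member UMI, summed to 622 CPM against 124 CPM, a ratio of 5.001 (4.52 to 5.53) and of 2.91 in rule-poor members, and Lgals4 had 338 of its 462 member UMIs. The part of these lineages in the results was not tested. The epithelial markers Epcam, Krt8, Krt18 and Cdh1 summed to 3607 CPM in the members and 3597 CPM in the others, a ratio of 1.003 (0.964 to 1.04). The members were thus epithelial cells by these markers, as the label of the sample states.

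Of 27 mucosal defence genes, 15 had no UMI in the members and 9 were counted. Of these 9, 5 were at least 2-fold higher and 0 lower, with a median log2 ratio of 1.46, but 2 of the 5, Lcn2 and Sprr1a, rested on 1 cell. The summed ratio of the list was 1.16 (1.12 to 1.19), with 1.19 in rule-rich and 0.942 (0.863 to 1.03) in rule-poor members. Pigr, the receptor that carries IgA across epithelium, had 156 CPM against 13.2 CPM, a ratio of 11.8 (9.41 to 14.8), and a UMI in 22 members. Its ratio in the rule-poor members was 0.739, on 1 UMI. Reg3g, a secreted antibacterial lectin, had 38 UMIs in 6 rule-rich members and 56 UMIs in 14 other cells, a ratio of 17.7 (11.4 to 27.2). Its level was 51.2 CPM (36.2 to 70.2) in the members and 37.1 CPM (21.2 to 60.2) in the cells of the replication set, with overlapping intervals. Lcn2, which binds bacterial siderophores, had a ratio of 2.75, but 65.2% of its member UMIs lay in 1 cell and the ratio was 1.01 without it. Sprr1a, a cornified envelope protein, likewise had 78.7% in 1 cell and ratios of 8.23 with and 1.81 without it. Wfdc2, an abundant secreted protease inhibitor, was at 4381 CPM against 4688 CPM, a ratio of 0.935.

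Among genes of fetal and regenerating epithelium, the members combined high and low values. Of 24 counted, 3 were higher and 3 lower, with a median log2 ratio of -0.18. Clu, which marks regenerating stem cells of the gut, had 8884 CPM against 2371 CPM, a ratio of 3.75 (3.65 to 3.85). It was 4.10 in rule-rich and 1.57 in rule-poor members. The alarmin Il33, outside the count, had 13.7 (10.4 to 18.1), the EGFR ligand Areg 8.53 (7.07 to 10.2) and Krt19 2.14 (1.99 to 2.30). Anxa10, an annexin of gastric epithelium, had 28.1 (18.9 to 42.0) on 55 member UMIs, outside that count.

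The 3 lower genes of this list encode surface antigens of the Ly6 family, while Ly6e, also of this family, had 0.660 (0.618 to 0.704) and did not reach 2-fold. Ly6a, also known as Sca-1, had 1581 CPM against 3196 CPM, a ratio of 0.495 (0.466 to 0.524). Ly6d had 0.412 and Ly6c1 0.295 (0.261 to 0.332). These 3 genes were in nearly every other cell, with a UMI in 98.9%, 99.3% and 95.8%. In the rule-poor members their ratios were 0.639, 0.637 and 0.491.

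Targets of p53 and the genes of the cell cycle were both higher in pooled values. Of 20 counted p53 targets, 8 were at least 2-fold higher and 0 lower, and their summed level was 4178 CPM against 1823 CPM. Cdkn1a, the cell cycle inhibitor p21, had 155 CPM against 14.9 CPM, a ratio of 10.4 (8.29 to 12.9), with a UMI in 23 of 33 rule-rich members, 3 of 25 rule-poor ones and 10.8% of other cells. Thinned to 3000 UMIs, the shares were 36.4%, 21.4% (3 of the 14 rule-poor members that were deep enough) and 2.74%. Ccng1 had a ratio of 5.27, Phlda3 4.29, Bax 3.08, Rps27l 2.74 and Mdm2 2.41, while Gadd45a, at 0.639, did not reach 2-fold in either direction. Trp53 had 27 member UMIs and a ratio of 4.70 (2.996 to 7.11). Gdf15, a secreted stress cytokine, had 36 UMIs in 11 members and a ratio of 20.9 (13.1 to 33.1).

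The p53 targets were higher in the rule-rich members (summed ratio 2.45, 2.36 to 2.55) and less so in the rule-poor ones (1.29, 1.13 to 1.47), where 2 targets were past 2-fold higher. There Cdkn1a had 5.24 on 8 UMIs and Bax 1.595, while Rps27l was at 0.904, Phlda3 at 0.864 on 1 UMI and Ccng1 at 0.597 on 1 UMI. Other inhibitors of the cell cycle were not higher, with ratios of 0.531 (0.459 to 0.610) for Cdkn2a and 0.437 (0.249 to 0.713) for Cdkn1b.

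Cell cycle genes were used by the rule as competing sets, so a cell led by them could not be a member. Leaving the genes of those sets out, 7 of 12 replication genes and 9 of 14 mitosis genes were at least 2-fold higher and 0 lower. With those genes, the summed ratio of the replication list was 2.41 in rule-rich and 1.09 in rule-poor members, and that of the mitosis list 2.62 and 0.890. These z values are part of the rule and are given as a description. A z of at least 2 for the replication or mitosis set was found in 18 members (31.0%, 19.5% to 44.5%) and in 8.83% of other cells. For Psca and Prss22 it was found in 10 members and 4.91% of other cells, for Mt1 and Mt2 in 9 and 3.599%, for Cxcl2 and Cxcl5 in 5 and 4.85%, for Ndrg1 and Ly6m in 3 and 6.65%, and for Scgb3a1 and Cyp2f2 in 2 and 4.85%. The 18 cells were 14 of 33 rule-rich and 4 of 25 rule-poor members. Birc5, which is needed for chromosome segregation, had a ratio of 3.90 (2.97 to 5.05), and Mki67 had 2.86. Against the 145 cells led by the cell cycle sets, the ratio of Mki67 was 0.376 and that of Birc5 0.570. A Cdkn1a UMI was found in 9 of the 18 members with such a z, whose median was 12328 gene UMIs, and in 17 of the other 40, whose median was 6283.

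Transcription factors of the foregut were mostly at a similar level, with 2 of 11 tested higher and 1 lower. Below 200 UMIs, and so outside that count, stood Gata6 with 24 member UMIs over 13 cells (ratio 14.9, 8.64 to 25.2), Foxa2 with 14 over 10 cells and Hnf4a with 12 over 12 cells, all factors of gut endoderm. Rule-rich members held 12 of the 13, 10 of 10 and 12 of 12 of these cells. Sox2, which specifies stomach, had 18.9 CPM against 40.6 CPM, a ratio of 0.464 (0.253 to 0.783), and the intestinal factor Cdx2 had 0.417 on 6 member UMIs. Of 4 tested intestinal genes, 3 were higher, among them Lgals4, a lectin of enterocytes, with 455 CPM against 58.9 CPM, or 7.72 (6.82 to 8.73), and Vil1, a microvillus protein, with 3.12. Of 21 genes of simple keratins and junctions, 17 were not past 2-fold, 2 were higher and 2 lower, with a median log2 ratio of 0.0008. Among them Cldn18, the stomach claudin, had 3.65 (3.20 to 4.16) and Cldn3 0.395 (0.330 to 0.470), while Cdh1, which encodes E-cadherin, had 1.29 (1.04 to 1.59).

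Stress genes of other kinds did not share one direction. Mt2, a metallothionein, had 5.66 (5.17 to 6.19) and Mt1 2.60, although cells led by these genes were kept out of the members by the rule. Without the genes of the rule's sets, 0 of 17 genes of metallothionein, hypoxia and glycolysis were at least 2-fold higher and 1, Egln3, lower. The hypoxia-related genes Egln3 and Aldoa had ratios of 0.411 and 0.590. Asns, the asparagine synthetase, had 3.37 (2.55 to 4.39), while Xbp1 had 0.415 (0.339 to 0.503) and the small heat shock protein Hspb1 0.381 (0.334 to 0.432). All 12 immediate early genes, which respond to growth factors and also to tissue dissociation, had ratios under 1, with a median log2 ratio of -0.92. Of these, 3 were at least 2-fold lower, namely Fos (0.408, 0.379 to 0.439), Atf3 (0.472) and Junb (0.484), and 8 were in the rule-rich members.

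The lowest ratios belonged to genes that only part of the other cells carried. The 25 lowest ran from 0.0756 to 0.211, and 20 of them had at most 3 member UMIs, so that their sizes are poorly determined. Those with more were Mmp7, a matrix protease (13 UMIs, ratio 0.160, 0.0853 to 0.275), Serpinb11 (10 UMIs, 0.180), the chaperone Cryab (6 UMIs, 0.160), Prkg2, a cGMP-dependent kinase (12 UMIs, 0.211), and Morc4 (4 UMIs, 0.202). Pcp4l1 was the lowest of the 25, with 2 member UMIs against 690.

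Larger counts were behind the low values of Aqp5 and Rhox5. Aqp5, a water channel that marks antral stem and gland base cells, had 292 CPM against 1176 CPM, a ratio of 0.248 (0.216 to 0.284), and ratios of 0.177 in rule-rich and 0.698 in rule-poor members. Rhox5 (GRCm38 chromosome X, 37804842 to 37808876, plus strand), a homeobox gene that lay outside the naming rule and was singled out after its values were seen, had 273 CPM against 1098 CPM. It had a UMI in 96.8% of other cells and in 34 of 58 members (58.6%, 44.9% to 71.4%). Thinned to 3000 UMIs, the shares were 87.3% in other cells, 27.3% in rule-rich members and 71.4% in the 14 rule-poor members that were deep enough.

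**Figure D5:**
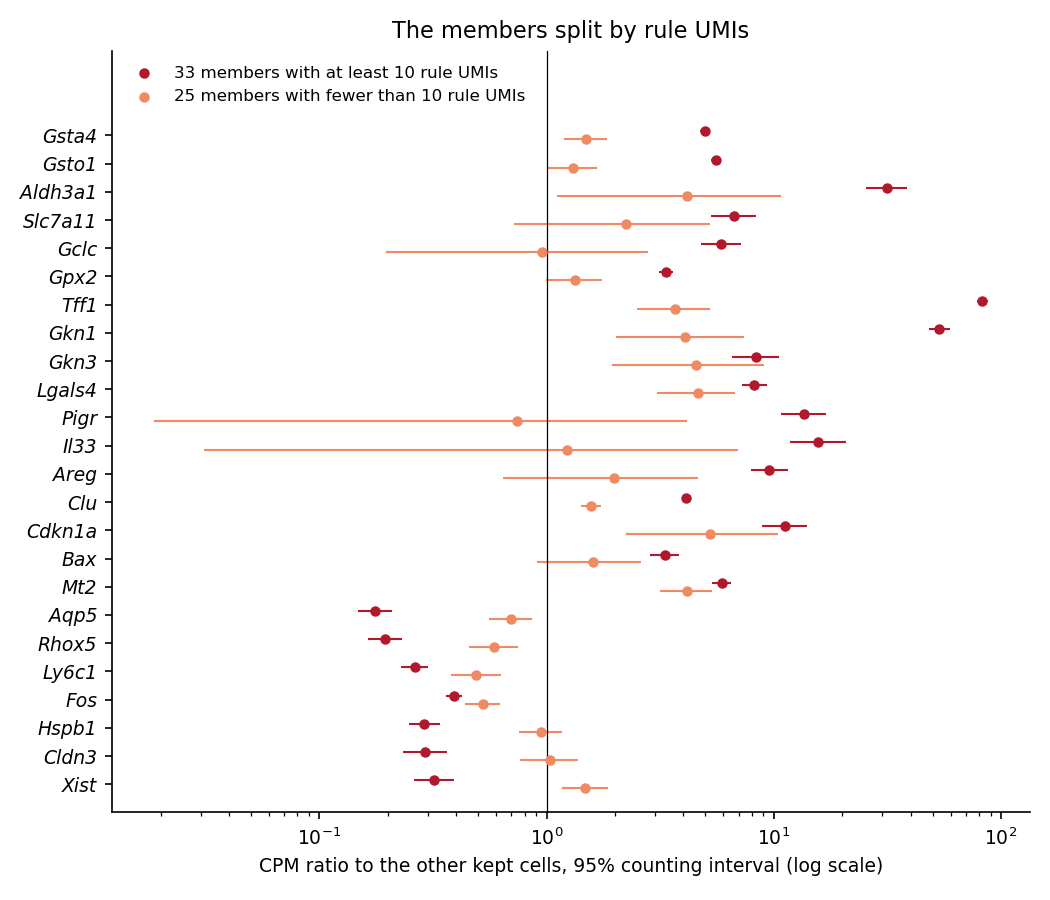
Points give the CPM ratio of 24 genes, chosen after their values were seen, to the other kept cells on a log axis, separately for the 33 rule-rich and the 25 rule-poor members, with 95% counting intervals. The rule-rich ratio lies farther from 1 on the log axis for each gene shown, and for Gclc, Pigr, Cldn3 and Xist (0.321 and 1.48) the ratios lie on either side of 1.

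Sex-linked genes differed along with these groups. Xist, whose RNA coats the silenced X, was detected in 24 members (41.4%) and in 77.9% of other cells. UMIs of Y-linked genes were found in 22 members (37.9%, 25.5% to 51.6%) and in 28 other cells (1.53%). By subset, 19 of 33 rule-rich and 3 of 25 rule-poor members had a Y-linked UMI. Both kinds were found in 7 members, 6 of them rule-rich, and in 18 other cells. The Y-linked ratio was 21.7 (13.9 to 33.8). Xist stood at 0.321 (0.261 to 0.390) of the other cells' level in rule-rich members and at 1.48 (1.16 to 1.86) in rule-poor ones. Rhox5 is X-linked as well. The part that cells of another origin have in the differences above was not tested.

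Of the 12 multiplexing tags, CMO301 led 38 members and CMO302 the other 20. In other cells, CMO301 led 55.8%. Tags mark the suspension that a cell came from, and the labels do not say which. The Scrublet caller marked 1 of the 58 members as a doublet, a droplet with 2 cells, and 12 of all 1892 kept cells. Its median score was 0.0197 in the members and 0.0303 in the others.

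Set against the cells of the other 7 sets, the members kept the highest pooled level of Gsta4, Gsto1, Aldh3a1, Slc7a11, Gclc, Clu, Cdkn1a, Areg, Lgals4 and the p53 targets. Gsta4 was at 196 to 851 CPM in those sets and at 529.5 CPM in the 1290 cells led by no set. Clu was at 1493 to 4293 CPM in those sets. The NRF2 list without the ferritin genes summed to 9678 CPM in the members, 4891 to 7355 CPM in the sets and 5652 CPM in cells of no set. These pooled levels are mainly those of the rule-rich members. In the rule-poor ones the NRF2 sum was 6026 CPM, inside the range of the sets, and Gclc was at 0.951 of the other cells' level. Cdkn1a at 78.1 CPM, Aldh3a1 at 39.1 CPM and the p53 targets at 2354 CPM were above the sets there too. Aqp5 was lower in the members than in any set, the nearest being the Ndrg1 and Ly6m cells at 423 CPM. Xist and Rhox5 were likewise at their lowest in the members. For these 3 genes the order is one of pooled levels and holds for the rule-rich members. In the rule-poor ones Xist was at 723 CPM, above the 325 to 612 CPM of the sets, Aqp5 at 820 CPM and Rhox5 at 645 CPM, and with equal weight per cell the ratio of Xist to all other cells was 1.17. For Mt2 and Psca the highest level lay in the cells chosen by those genes, at 1244 and 1084 CPM, with the members next at 799.8 and 291 CPM.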

How the data were processed

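Single-cell RNA of 1 wild type organoid library was analysed. The authors deposited raw UMI counts per gene and barcode, made with Cell Ranger 6.1.2, per the submitters' processing notes, on GRCm38/mm10, per the labels. The deposited matrix had 1991 barcodes, 32285 genes and 12 tags, no repeated barcode and 20236916 gene UMIs. Kept cells had 890 to 47183 UMIs with a median of 8512.5. Tags were left out of all totals. Of the gene identifiers, 32235 were found in GENCODE M21. Promoters came from RefSeq.

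Members and gene lists were chosen with earlier results of these data known. UMIs were summed over cells and expressed as CPM. Intervals at 95% are exact Poisson for CPM, Clopper-Pearson for shares and conditional binomial for ratios. A side with 0 UMIs was set at 3 for calls. Genes named are the 25 highest (at least 50 member UMIs, a UMI in 10% of members), the 25 lowest (at least 200 UMIs, a UMI in 10% of others) and genes of the lists, with exceptions stated. Doublets were scored with Scrublet in scanpy 1.11.5 at an expected rate of 1.59% and were kept; it marked 0.634% of cells. Clustering used 2000 variable genes, 30 components and 15 neighbours. On data simulated for members against other cells, over 6662 genes, 100 of 100 genes raised 4-fold, 98 of 100 lowered to 0.25 (1 of which fell below the minimum) and 153 of 6463 unchanged ones were called. The simulation drew pooled counts with no variation between cells, so it does not give the share of false calls for cells that differ. Alternatives were other filters, thresholds, weights, depths, comparison cells and tags.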

Additional observations from a re-analysis of the deposited data

Results flagged for a closer look

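Tag UMIs were left out of all gene totals, and the highest tag of a cell was used to restrict comparisons to cells led by CMO301 or by CMO302. The tags held a signal. The highest tag of 20 members was CMO302, so the members came under both of the tags that lead kept cells. The highest tag held a median of 75.6% of a member's tag UMIs, against 83.2% in the other kept cells. It held under 50% in 9 members (15.5%) and in 4.85% of other cells. A member had a median of 1584 tag UMIs and another cell 2306.5. Among the rule-rich members the median was 78.7% and among the rule-poor ones 75.0%. The part of mixed droplets in this was not tested. No group had replicate libraries, so no sample was compared with others of its group.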

How the results depend on the processing

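No paired analysis was possible because the design holds a single library. The share of members (3.07%) was 4.44% at z of 1.5, 1.90% at z of 3, 4.07% where z need not be the highest, 1.69% from Cyba alone and 1.74% with at least 10 rule UMIs. The 308 higher genes became 470 with equal weight per cell, 595 after thinning, 194 against cells of the cycle sets, 480 in CMO302 cells, 838, 51 and 2221 with minimums of 50, 1000 and 1 UMI, and 43 at 4-fold. The 380 lower genes became 216 at z of 1.5, 660 at z of 3, 721 after thinning, 852 in CMO302 cells, 762, 80 and 762 with those minimums, 51 at 4-fold and 631 in the rule-poor members. The other 38 values of these 3 results stayed within 1.5 times or the share's interval. After thinning, 208 of the 595 higher genes and 146 of the 721 lower ones were among those of the untreated counts.

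Ratios of 121 genes were computed under up to 22 alternatives. Of 2632 values, 1984 stayed within the counting interval, 616 moved beyond it and 32 reversed. Of 104 genes past 2-fold, 29 were so in the rule-poor members, 82 after thinning, 83 with equal weight per cell, 83 against cells of the cycle sets and 86 to 104 under the other 18. Reversed in the rule-poor members were Gsta3 0.961, Gclc 0.951, Gclm 0.558, Rps27l 0.904, Ccng1 0.597, Phlda3 0.864, Asns 0.776, Cldn3 1.04, Pigr 0.739, Lcn2 0.625, Foxa1 0.421, Cyp2f2 1.27, Axin2 2.04, Psca 0.731 and Xist 1.48. Sprr1a was at 0.934 with the rule from Cyba alone and at 0.350 without the Tff1-high members, where Mucl3 was at 0.877 on 1 UMI. With equal weight per cell Xist was at 1.17, and after thinning Foxa1 was at 0.906 on 3 UMIs, Gss at 0.969 on 4, Ezh2 at 0.590 on 2, Irf7 at 1.46 on 2 and Axin2 at 1.69 on 4. Hmox1 was at 0.7375 from Cyba alone, at 0.921 in CMO302 cells and at 0.871 without its top member. Against cells of the cycle sets Birc5 was at 0.570, Mcm3 at 0.5316 and Mki67 at 0.376, and these sets were chosen by such genes; Irf7 was at 1.15 on 3 UMIs and Pgc at 0.889. The cause was not tested for the others. The split at 10 rule UMIs, the omission of Tff1-high members or of a gene's top member and a minimum of 3000 UMIs were chosen after seeing the data. So was counting lists by UMIs in the other cells: by all kept cells, 8 of 16 transferases and 16 of 35 NRF2 genes were higher. Fewer member UMIs limit the low ratios: 78 of 380 lower genes had at most 3.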

Other observations

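Of 11 counted secretory and airway-like genes, 5 were at least 2-fold higher and 2 lower in the members, and without the genes of the rule's sets 4 of 7 were higher, with a median log2 ratio of 1.97. Those 4 were Pigr, Gsto1, Agr2, a disulfide isomerase needed for mucin production (ratio 4.31, 3.50 to 5.27), and Dmbt1, a secreted scavenger receptor (3.91, 2.87 to 5.22). Pigr and Gsto1 also stand in lists described above. In the rule-poor members Agr2 was at 3.32 and Dmbt1 at 1.604.

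Of 9 tested Wnt and stem genes, 0 were at least 2-fold higher and 2 lower in the members, with a median log2 ratio of -0.52. The lower ones were Aqp5 and the Wnt target Axin2, which had 7 member UMIs and a ratio of 0.492 (0.197 to 1.02), but 2.04 in the rule-poor members and 1.69 after thinning, on 4 UMIs each. Lrig1, a restrainer of growth factor receptors found in stem cells, had 10 member UMIs, and its ratio was 0.200 in the rule-rich and 2.92 in the rule-poor members. Of 18 genes of MAPK output and EGFR ligands, Areg was higher and 0 were lower, and the median log2 ratio was -0.50. Dusp6, a phosphatase that restrains ERK, had 0.525 (0.368 to 0.726), and the ligand Btc, with 13 member UMIs and too few in all cells to be counted, had 3.23 (1.66 to 5.77).

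Of 12 interferon and MHC genes, 0 were higher and 3 lower, namely Isg15 (6 member UMIs, ratio 0.311, 0.114 to 0.682), Irf7 (3 UMIs, 0.322) and H2-T22 (5 UMIs, 0.415). The direction of Irf7 turned to 1.46 after thinning, on 2 UMIs, and to 1.15 against cells of the cycle sets. Among 12 NF-kB and chemokine genes and 5 imprinted genes, 0 were past 2-fold in either direction. Of 9 genes of Polycomb repressive complex 2, Ezh2, its methyltransferase, was higher at 2.18 (1.55 to 3.01), with 41 member UMIs, and 0 were lower. After thinning Ezh2 was at 0.590, on 2 UMIs. Of 18 genes of the unfolded protein response and stress, 2 were higher and 2 lower, and of these the heat shock protein Hsph1 had 2.08 (1.36 to 3.06) on 28 UMIs.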
